A study of Homo sapiens with 24 samples.

Results

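Protocadherins are cadherin-family adhesion proteins of the cell surface, and their genes were followed here as a family through neural cultures carrying short hairpin RNAs (shRNAs) against KDM2A, a histone H3 lysine demethylase. Members were all protein-coding genes whose symbol starts with PCDH, which gave 66 genes among the 61544 identifiers of the organoid count table. Of these, 53 lie in the alpha, beta and gamma clusters of chromosome 5 (15, 16 and 22 genes) and 13 are non-clustered. The neural progenitor cell (NPC) table lists 32 of them: 9 alpha, 3 beta, 12 gamma and 8 non-clustered genes. The other 34 members, PCDHAC2, PCDHB15, PCDHGB4 and PCDHGB6 among them, were not analysed here in NPCs.

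RNA was measured in 24 libraries made from the H9 line (established human embryonic stem cells) after it was turned into NPCs or grown into cerebral organoids for 30 days. In both systems the group NC is labelled as wild type with a scrambled shRNA, and the groups sh1 and sh4 are labelled as KDM2A knockdown by hairpin 1 or hairpin 4. All groups were transduced with lentivirus at a multiplicity of infection of 20 and selected with puromycin at 1 µg/ml, so no group is untransduced. Other differences between the transduced groups cannot be told apart from the hairpin. There were 5 libraries per group in NPCs and 3 per group in organoids. The labels do not say whether libraries came from separate cultures, nor whether a hairpin line is 1 clone or a pool, so p-values cover only the spread between these libraries.

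The clustered protocadherins are built in an unusual way. In the alpha and gamma clusters each gene has its own promoter and a long first exon that encodes the extracellular and transmembrane parts, spliced to constant exons shared by the whole cluster, while beta genes stand alone. A neuron transcribes a small set of these promoters, chosen through CTCF, cohesin and DNA methylation, and the mix of isoforms on its surface is known to let a neurite recognise its own branches. Non-clustered protocadherins, among them the delta-1 and delta-2 groups, have single promoters and act in axon growth, synapse formation and cell sorting.

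KDM2A itself separated the groups in NPCs but not in organoids. In NPCs it lay at 163 to 202 CPM (counts-per-million, scaled to a common library total) in NC, 89.1 to 98.1 in sh1 and 91.3 to 102 in sh4, with log2 fold changes of -1.02 ± 0.05 and -0.97 ± 0.05 (standard error). In organoids it ranged over 96.8 to 105 CPM in NC, 103 to 117 with the label sh1 and 95.5 to 105 with the label sh4, and neither difference passed (edgeR adjusted p = 0.13 and 0.93). Scaled by library size alone, the sh4 value was -0.27 (edgeR adjusted p = 0.0087), so even the sign of this small difference depends on scaling. The target therefore does not back the organoid labels, and every direction given below for organoids is a direction between libraries labelled NC, sh1 and sh4. Library totals were 15899243 to 18853737 counts in organoids and 12733888 to 20185306 counts of listed genes in NPCs, and mitochondrial genes took 3.07% to 3.5% of the counts in NC organoids, 3.14% to 3.29% with sh1 and 5.05% to 6.02% with sh4.

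Organoid marker genes moved strongly with the labels, and fewer cells of a type cannot be told apart from less RNA per cell in bulk samples. All 12 neuron markers fell in organoids labelled sh4 (2 of 12 in those labelled sh1), and their summed level was 3530 to 3850 CPM in NC, 1830 to 2390 with sh1 and 259 to 1060 with sh4. Neural progenitor markers summed to 3460 to 4000, 2790 to 2890 and 1370 to 1790 CPM, with 7 of 11 lower with each label and 1 of 11 higher with sh4. The summed level of mesenchyme markers was 2990 to 4410 CPM in NC, 20600 to 23000 with sh1 and 39600 to 48600 with sh4, with 7 of 8 higher with each label. Choroid plexus markers (6 of 6 higher with each label) reached 4090 to 8980 CPM, hepatic endoderm markers (5 of 5) 20700 to 73400 and endothelial markers (4 of 5) 447 to 638 in the organoids labelled sh4. TTR is in both the choroid plexus and the hepatic list, and alone was at 7809, 4372 and 3081 CPM in those libraries. The choroid plexus markers FOLR1 and KCNJ13 were at 14.2 to 21.1 and 11.7 to 21.3 CPM there. No listed marker of these types was at 0 in every organoid library. The part of these shifts in the protocadherin values below was not tested.

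Each cluster's promoters share short stretches of sequence. A few are shown because in the alpha and gamma clusters genes that moved up and genes that moved down carry the same letters. In the beta cluster no gene moved up by the rule for a call given below. Promoter windows of 300 bases (250 before and 50 after the start, RefSeq, GRCh38.p14) were found for 58 of the 66 members. The core CGCT of the element known from clustered protocadherin promoters, searched on both strands, was in 12 of 13 alpha, 14 of 14 beta and 20 of 20 gamma windows, and in 10 of 11 non-clustered windows, against 69.4% of all 27305 windows. CCCTC, a piece of the CTCF motif, was in 3 of 13 alpha, 0 of 14 beta, 9 of 20 gamma and 10 of 11 non-clustered windows, against 70.3% of all. The most shared word of 8 letters was GTGGCGCT in the beta cluster (13 of 14 windows, 1.18% of all windows), ATGTCGCT in the alpha cluster (9 of 13, 0.245% of all) and GCCGCTGT in the gamma cluster (11 of 20, 1.6% of all). In the beta and alpha clusters 1 overlapping word was shared by as many windows. All 3 words contain CGCT. None of the 3 words was in a window of another cluster or of a non-clustered member. The 40 bases around the word follow for 12 genes on the plus strand of chromosome 5, with the shared word in capitals.
PCDHB3 (chr5:141100389-141100428): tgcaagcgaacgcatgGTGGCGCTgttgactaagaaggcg
PCDHB4 (chr5:141121719-141121758): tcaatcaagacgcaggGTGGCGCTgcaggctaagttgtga
PCDHB5 (chr5:141135175-141135214): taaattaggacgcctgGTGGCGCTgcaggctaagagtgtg
PCDHB9 (chr5:141187070-141187109): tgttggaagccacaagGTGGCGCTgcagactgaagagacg
PCDHB15 (chr5:141245310-141245349): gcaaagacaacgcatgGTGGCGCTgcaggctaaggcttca
PCDHA2 (chr5:140794777-140794816): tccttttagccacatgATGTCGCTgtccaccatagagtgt
PCDHA6 (chr5:140827893-140827932): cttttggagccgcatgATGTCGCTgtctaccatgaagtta
PCDHA12 (chr5:140875240-140875279): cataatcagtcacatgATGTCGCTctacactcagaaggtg
PCDHGB6 (chr5:141407922-141407961): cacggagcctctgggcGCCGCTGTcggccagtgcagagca
PCDHGA10 (chr5:141412929-141412968): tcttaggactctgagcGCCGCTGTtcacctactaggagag
PCDHGC3 (chr5:141475878-141475917): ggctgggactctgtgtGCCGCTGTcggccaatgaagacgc
PCDHGC4 (chr5:141484950-141484989): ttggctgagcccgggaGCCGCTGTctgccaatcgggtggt

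Over all windows holding their cluster's word, shown above or not, the word begins 1 to 83 bases before the annotated start in the beta cluster. The range is 42 to 85 bases in the alpha cluster and 42 to 97 bases in the gamma cluster. Between any 2 of the 13 beta windows that hold the word, 22 to 39 of the 40 bases were identical, with a median of 26. Among the gamma genes above, PCDHGA10 was higher and PCDHGC4 lower in organoids labelled sh4, and both hold GCCGCTGT. Of the gamma windows, 4 of the 7 belonging to genes called lower with sh4 held the word, as did 6 of the 12 belonging to genes not called. A match, or the lack of one, describes letters only and says nothing of binding.

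In organoids, 64 members passed the filter on low counts, and PCDHB1 and PCDH11Y did not. A gene is said to have risen or fallen, and counts as called, if its edgeR adjusted p is under 0.05 and its log2 fold change has a size of 1 or more. The wider rule asks only for the adjusted p. With the label sh1, 5 members were higher and 7 lower than NC, against 12.1% and 7.92% of all 19704 genes tested, so the share of members (7.81% and 10.9%) was near the background. With the label sh4, 6 members were higher and 23 lower, 9.38% and 35.9% of those tested, against 20% and 15.5% of all genes. Scaled by library size alone, 4 members were higher and 31 lower with sh4. The median log2 fold change of the tested members was -0.19 with sh1 and -0.81 with sh4, beside 0.02 and -0.01 over all genes. Between the labels, 14 members were higher with sh1 than with sh4 and 2 lower, against 7.83% and 11.2% of all genes. By the wider rule 11 members were higher and 11 lower with sh1 (25.1% and 21.6% of all genes, 46.7% in either direction), and 9 were higher and 37 lower with sh4 (34.5% and 33.4%, 67.9% in either direction). Between the labels that rule gave 30 members higher and 6 lower with sh1, against 25.1% and 24.8% of all genes (49.9% in either direction). The comparisons of sh1 and sh4 with NC share the same 3 NC libraries.

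**Figure D1:**
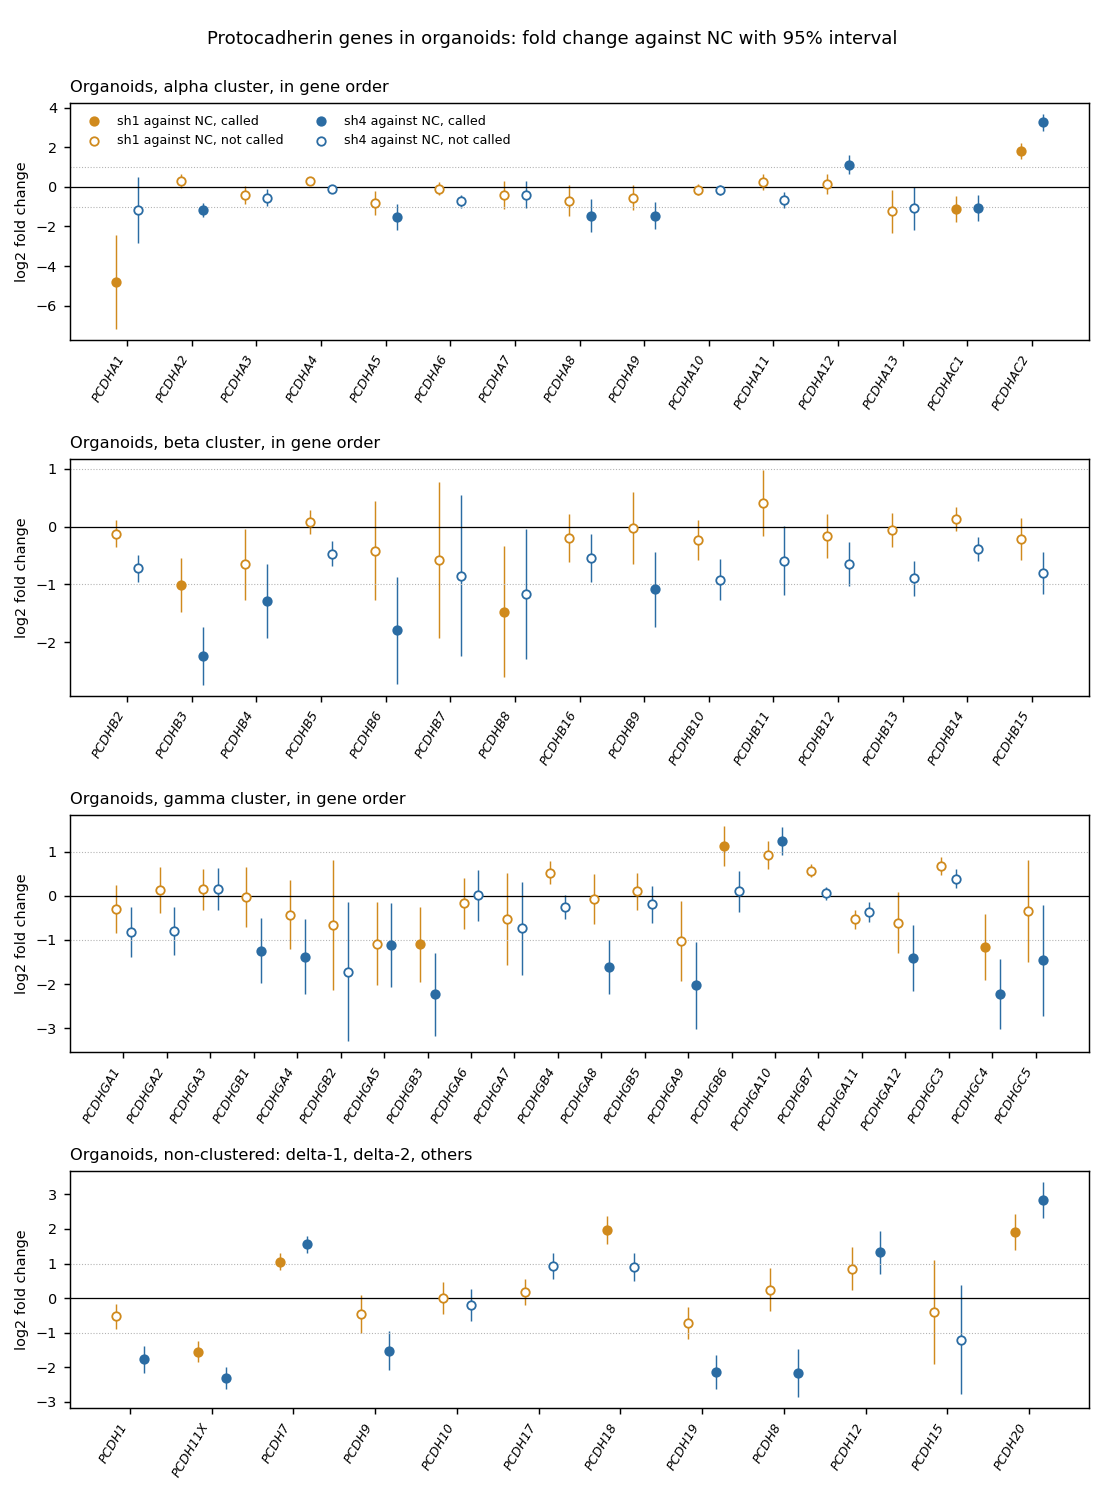
Log2 fold change of each tested protocadherin gene in organoids labelled sh1 (orange) and sh4 (blue) against NC, with 95% intervals from the edgeR fit, in gene order within each cluster. Filled points are called (adjusted p under 0.05 and log2 fold change of at least 1 in size), and dotted lines mark that size. All 15 beta points for sh4 lie below 0, while PCDHAC2, at the end of the alpha cluster, stands at 1.82 with sh1 and 3.26 with sh4.

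The largest rise in the alpha cluster, with both labels, was that of its last gene. PCDHAC2, a C-type isoform known in mice for the spacing of serotonergic axons, was at 8.12, 9.44 and 7.45 CPM in NC, 32.6, 21.6 and 34.3 CPM with sh1, and 91.6, 72.8 and 75.2 CPM with sh4. The 3 groups did not overlap. Its log2 fold change was 1.82 ± 0.18 with sh1 and 3.26 ± 0.19 with sh4 (edgeR adjusted p = 5.6e-05 and 8e-07), and sh1 lay below sh4 by 1.44 ± 0.17. PCDHAC2 made up 4.88% ± 0.52 of the cluster's summed CPM in NC, 15.6% ± 3.4 with sh1 and 38.5% ± 3.5 with sh4 (SD, n = 3). Its window holds no ATGTCGCT.

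The cluster's sum combined the rise of PCDHAC2 with a lower level of the other genes in organoids labelled sh4. All 15 alpha genes together gave 170.7 ± 9.4 CPM in NC, 188.9 ± 3.1 with sh1 and 206.9 ± 7.9 with sh4 (SD, n = 3). Without PCDHAC2 the other 14 genes gave 162.4 ± 9.0, 159.4 ± 4.1 and 127.1 ± 4.0 CPM, so their sum was lowest with sh4, with no overlap with NC. With sh1 the sum of these 14 genes overlapped NC. The order of the full sum depends on scaling: by library size alone it was 183.6, 197.2 and 183.7 CPM.

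Of the variable alpha genes, which are numbered from PCDHA1 to PCDHA13 along the cluster, only PCDHA12 rose, and it did so with sh4 alone. It was at 8.89, 8 and 9.85 CPM in NC and at 23.2, 16 and 18.9 CPM with sh4, a log2 fold change of 1.12 ± 0.22 (edgeR adjusted p = 0.0014) that was 0.83 by library size alone and 0.97 without sh4 replicate 1. With sh1 it overlapped NC at 7.40, 9.01 and 13.4 CPM. PCDHA2 went the other way with sh4, from 22.5, 17.6 and 23.2 CPM in NC to 7.21, 9.65 and 11.2 CPM, a log2 fold change of -1.17 ± 0.16, and it was at 25.2, 27.0 and 24.9 CPM with sh1. PCDHA5, PCDHA8 and PCDHA9, all under 5 CPM in every library, fell with sh4 by 1.53, 1.46 and 1.45 on the log2 scale. Alpha genes at steadier levels included PCDHA10, at 32.2 to 43.5 CPM in NC, 32.0 to 36.5 with sh1 and 31.2 to 36.2 with sh4.

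PCDHA1 and PCDHAC1 were lower at small counts. PCDHA1 had 47, 28 and 19 counts in the NC libraries, 3, 0 and 0 counts in those labelled sh1, and 1, 17 and 20 counts in those labelled sh4. The sum of 3 counts with sh1 against 94 in NC is a ratio of 0.0305 after scaling by total counts (95% exact binomial interval 0.00618 to 0.092, counting error only). With sh4 the libraries themselves disagreed. PCDHAC1, the other C-type alpha gene, was at 5.30, 4.27 and 3.40 CPM in NC, 2.14, 1.92 and 1.86 with sh1 and 1.30, 2.06 and 2.76 with sh4, and fell by 1.13 ± 0.29 and 1.08 ± 0.29. Both calls were lost without NC replicate 1 (-0.96 with sh1), and the sh4 call also without sh4 replicate 1, at a weakest value of -0.84. The 2 C-type genes of the cluster thus differed in direction with both labels.

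The beta cluster was lower throughout in organoids labelled sh4. All 15 tested genes had a log2 fold change below 0, from -0.39 to -2.25 with a median of -0.85, and 12 of 15 had an adjusted p under 0.05, against 33.4% of all genes lower by that wider rule. At the size of a call, 4 fell (PCDHB3, PCDHB4, PCDHB6 and PCDHB9), against 15.5% of all genes. The summed level was 324.6, 316.9 and 300.6 CPM in NC, 285.3, 305.7 and 271.0 with sh1, and 159.0, 196.8 and 209.0 with sh4. The sh4 sums lay below all others, while sh1 and NC overlapped. With sh1 the median was -0.21 and 2 of 15 genes fell, against 7.92% of all genes.

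PCDHB3 was lower with both labels. It stood at 15.5, 15.8 and 13.2 CPM in NC, 8.78, 7.58 and 5.64 CPM with sh1 and 2.34, 3.12 and 3.90 CPM with sh4, and the 3 groups did not overlap. The log2 fold changes were -1.02 ± 0.21 and -2.25 ± 0.22 (edgeR adjusted p = 0.0032 and 1.6e-05), and the sh1 call was lost without NC replicate 1, NC replicate 2 or sh1 replicate 3, at a weakest value of -0.88. PCDHB6 went from 7.67, 5.97 and 7.21 CPM in NC to 0.584, 2.35 and 3.00 CPM with sh4, a log2 fold change of -1.80 ± 0.41. PCDHB4 and PCDHB9 fell by 1.29 ± 0.28 and 1.09 ± 0.29 with sh4. The PCDHB9 call rested on sh4 replicate 1, without which its log2 fold change was -0.81. PCDHB8, at 0.997 to 3.20 CPM in NC and 0.438 to 1.04 with sh1, was called lower with sh1 (-1.47 ± 0.51), and this call was lost without any 1 of 5 libraries (NC replicate 1 or 2, or any sh1 replicate).

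PCDHB5, PCDHB15 and PCDHB2 made up 26.6%, 21% and 18% of the cluster's summed CPM in NC. Per kilobase of annotated exons, PCDHB5, PCDHB15 and PCDHB2 were the 3 highest protocadherins in NC organoids, at 24.4 ± 1.4, 16.4 ± 1.6 and 13.7 ± 0.7 CPM per kb (SD, n = 3), ahead of PCDHGB4 at 9.44 ± 0.28 and PCDH18 at 9.36 ± 1.34, which did not differ beyond their spread. For alpha and gamma genes this length includes the shared constant exons, so ranks per kilobase against those genes are uncertain. PCDHB5 was at 79.7, 81.5 and 88.5 CPM in NC, 82.4, 97.5 and 83.6 with sh1, and 53.8, 66.4 and 59.8 with sh4. Only the sh4 libraries stood apart, with a log2 fold change of -0.47 ± 0.10. PCDHB15 and PCDHB2 were lower by 0.80 ± 0.16 and 0.73 ± 0.10 with sh4, short of the size of a call.

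The gamma cluster did not move in 1 direction. Its summed level was 309.5 ± 8.1 CPM in NC, 414.3 ± 37.0 with sh1 and 309.6 ± 30.6 with sh4 (SD, n = 3), yet with sh4 9 of 22 genes fell and 1 rose. Over all genes 15.5% fell and 20% rose with sh4. Genes of low level fell: of the 12 gamma genes with a mean under 5 CPM over all organoid libraries, 8 were called lower with sh4, against 21.9% of all genes at that level. Of the 10 gamma genes at or above 5 CPM, 1 fell and 1 rose, against 12.6% and 16.6% of all genes at that level. The same split in the alpha cluster gave 4 of 7 lower below 5 CPM, and 1 lower and 2 higher of 8 above it, while in the beta cluster 1 of 5 and 3 of 10 fell. The same shares of all genes, 21.9% lower below 5 CPM and 12.6% above it, stand beside these counts. The mean includes the sh4 libraries, so a fall with sh4 can itself place a gene below 5 CPM. PCDHB6, the beta gene under 5 CPM that fell, averaged 6.95 CPM in NC and 4.71 over all organoid libraries. 

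PCDHGA10 and PCDHGB6, neighbours in the cluster, were the gamma genes that rose. PCDHGA10 was at 16.7, 18.4 and 16.5 CPM in NC, 34.7, 36.4 and 26.5 with sh1, and 34.6, 40.7 and 46.1 with sh4, and both labels lay above NC. Its log2 fold change was 0.92 ± 0.14 with sh1, just under the size of a call, and 1.23 ± 0.14 with sh4 (edgeR adjusted p = 4e-05, and 0.97 in size by library size alone). PCDHGB6 was at 28.4, 25.7 and 24.4 CPM in NC and 62.0, 61.1 and 48.2 with sh1, a log2 fold change of 1.13 ± 0.20. With sh4 it spread over 19.6, 26.6 and 37.7 CPM and overlapped NC.

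PCDHGB4, PCDHGB7 and PCDHGC3 were also higher with sh1, below the size of a call. The 7 gamma B genes summed to 155.1, 151.1 and 148.4 CPM in NC, 236.5, 249.3 and 204.6 with sh1 and 125.3, 130.7 and 158.9 with sh4. The 12 gamma A genes summed to 93.8 ± 9.2, 98.1 ± 8.4 and 103.4 ± 9.5 CPM (SD, n = 3), within their spread. PCDHGB4 and PCDHGB7 were higher with sh1 by 0.53 ± 0.12 and 0.57 ± 0.07, with sh4 at -0.25 ± 0.12 and 0.05 ± 0.07. PCDHGC3, a C-type isoform known to act on dendrite branching through AXIN1, was at 45.3, 47.7 and 54.6 CPM in NC, 82.3, 81.3 and 72.8 with sh1 and 58.8, 68.2 and 66.2 with sh4, all above NC (0.68 ± 0.09 and 0.39 ± 0.09).

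PCDHGC4, the isoform known from mice to keep interneurons alive, fell with both labels. It was at 13.4, 13.5 and 13.1 CPM in NC, 8.61, 4.62 and 4.71 with sh1 and 1.69, 2.29 and 4.50 with sh4. The NC libraries lay close together and above all others, with log2 fold changes of -1.16 ± 0.33 and -2.23 ± 0.35 (edgeR adjusted p = 0.017 and 0.00033). Without sh1 replicate 2 or 3 the sh1 call was lost. PCDHGB3 was the other gamma gene called lower with both labels (-1.10 ± 0.38 and -2.23 ± 0.42), at 2.43, 2.24 and 1.11 CPM in NC and under 1 CPM in every other organoid library, and its sh1 call was lost in 5 of the 6 fits that left out 1 library of the comparison. PCDHGA9, PCDHGA8, PCDHGB1, PCDHGA4 and PCDHGA12 fell with sh4 by 2.03, 1.61, 1.24, 1.38 and 1.41 on the log2 scale. The sh4 calls of PCDHGA5 (-1.11) and PCDHGC5 (-1.46) were lost in 5 and 4 such fits.

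**Figure D2:**
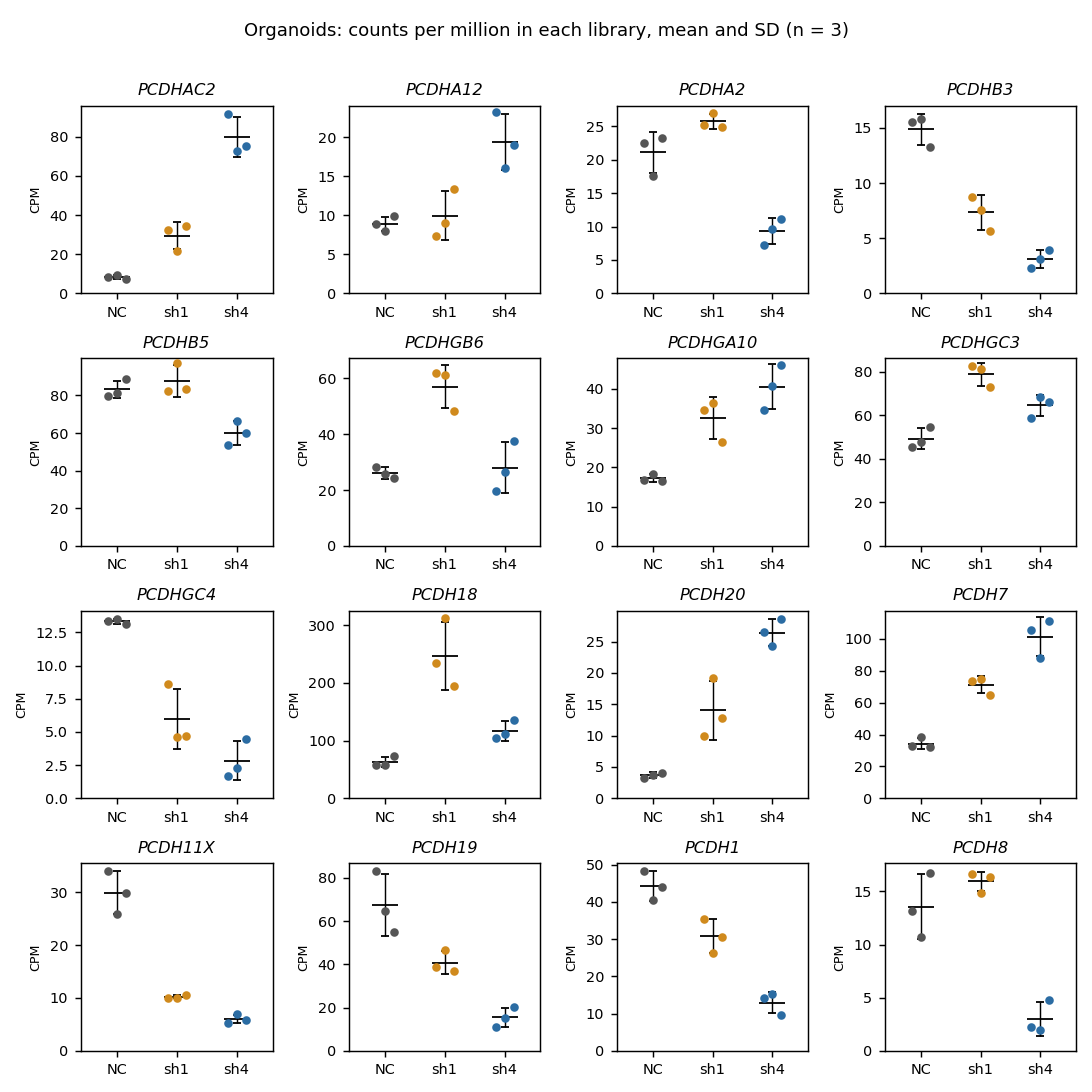
CPM of 16 protocadherin genes in each organoid library (points), with the mean and SD of each group of 3 (black). PCDHAC2, PCDH20 and PCDH7 rise from NC through sh1 to sh4, PCDHB3, PCDHGC4 and PCDH11X descend in the same order, and PCDH18 and PCDHGB6 are highest in the libraries labelled sh1.

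Non-clustered genes went in both directions. With sh1, 3 of 12 tested genes rose and 1 fell, against 12.1% and 7.92% of all genes. With sh4 3 rose and 5 fell, against 20% and 15.5%. In the delta-1 group, PCDH7, which binds the phosphatase PP1 through its cytoplasmic tail, was at 32.5, 38.4 and 32.1 CPM in NC, 73.8, 74.8 and 64.9 with sh1 and 105, 87.9 and 111 with sh4. It rose by 1.05 ± 0.11 and 1.56 ± 0.11 (edgeR adjusted p = 6.5e-05 and 2.2e-06), with no overlap between any of the groups. PCDH11X, the X-linked member of the group, went the other way, from 34.0, 25.9 and 29.9 CPM in NC to 10, 10.1 and 10.6 with sh1 and 5.26, 6.88 and 5.87 with sh4 (-1.55 ± 0.13 and -2.31 ± 0.14). PCDH1 was at 48.4, 40.4 and 44.0 CPM in NC, 35.5, 26.4 and 30.4 with sh1 and 14, 15.2 and 9.65 with sh4, and fell with sh4 by 1.77 ± 0.17. PCDH9 fell with sh4 by 1.51 ± 0.25, to 11.3, 21.0 and 27.5 CPM from 62.0, 57.4 and 51.9 in NC.

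In the delta-2 group PCDH18 had the highest level per kilobase of all members in the libraries labelled sh1. It was at 57.6, 57.3 and 73.0 CPM in NC, 234, 312 and 196 with sh1, and 104, 111 and 136 with sh4, so all 3 groups stood apart and sh1 lay highest. The log2 fold change was 1.98 ± 0.18 with sh1 (edgeR adjusted p = 3e-05) and 0.90 ± 0.18 with sh4, and sh1 exceeded sh4 by 1.08 ± 0.18, a call lost without sh1 replicate 2 or sh4 replicate 1. The summed level of the delta-2 genes was 227.9 ± 20.2 CPM in NC and 391.1 ± 81.3 with sh1 (SD, n = 3). PCDH19, an X-linked epilepsy gene that pairs with N-cadherin, fell with sh4 from 83.1, 64.6 and 54.8 CPM to 11.0, 15.3 and 20.0 (-2.13 ± 0.22) and was at 38.9, 46.8 and 36.7 with sh1 (-0.73 ± 0.21). PCDH8 was lower with sh4 only, at 2.21, 1.94 and 4.80 CPM against 13.2, 10.7 and 16.8 in NC and 16.6, 14.9 and 16.3 with sh1. The difference between the labels was 2.41 ± 0.31. PCDH17 was at 43.4, 34.7 and 40.3 CPM with sh4, above the 15.5 to 24.8 CPM of NC (0.92 ± 0.17), and PCDH10 was at 58.3 to 70.3 CPM in NC, 45.9 to 77.2 with sh1 and 43.6 to 69.8 with sh4.

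Outside the delta groups, PCDH20 went from 3.20, 3.79 and 4.11 CPM in NC to 9.98, 19.2 and 12.9 with sh1 and 26.5, 24.2 and 28.6 with sh4. The 3 groups did not overlap, and the log2 fold changes were 1.92 ± 0.23 and 2.84 ± 0.23 (edgeR adjusted p = 0.00016 and 5.1e-06). In the gene annotation 95.8% of its exon bases are also covered by another gene on the same strand. PCDH12, known from endothelium, was at 3.26, 3.57 and 5.39 CPM in NC, 7.90, 7.03 and 7.18 with sh1 and 14.3, 9.29 and 7.07 with sh4, and rose with sh4 by 1.33 ± 0.28. PCDH15, the tip-link protein of inner ear hair cells, varied from 0.909 to 9.12 CPM over the 9 libraries, with no difference past the test.

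The NPC table needs a caution before its values. Between sh1 and NC, 99.3% of its tested genes had an adjusted p under 0.05. Its genes were therefore taken as already chosen for a difference there. Nothing is read from how many members pass the wider rule, nor from a single member passing it with sh1. That rule took 50.1% of the genes as higher and 49.2% as lower with sh1, and 88% in either direction with sh4 (44% higher and 44.1% lower). Levels in NPCs are CPM of listed genes and cannot be set against organoid CPM. At the size of a call, 1 member was higher and 4 lower with sh1, against 6.31% and 12.1% of the 9860 genes tested. With sh4, 1 was higher and 12 lower (37.5% of the 32 members), against 6.55% and 11.6%. These shares differed by level, taken as the mean over all NPC libraries, so a fall can itself place a gene in the lower class. Of NPC genes with a mean under 5 CPM, 44.4% were called lower with sh1 and 41.6% with sh4, against 6.27% and 6.13% of those above it. Of the 13 members under 5 CPM, 4 were called lower with sh1 and 7 with sh4, and of the 19 members above it 0 and 5. Between the hairpins, 7 members were higher with sh1 and 1 lower, against 2.18% and 2.42% of all tested genes (4.6% in either direction). Median log2 fold changes of the members were -0.49 with sh1 and -0.56 with sh4, beside 0.11 and 0.03 over all tested genes, and both comparisons use the same 5 NC libraries.

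In NPCs, the largest falls among the 32 members were those of PCDHGA3, PCDHGA7 and PCDHA6 with sh4. PCDHGA3 was at 24.9, 23.1, 27.9, 26.7 and 24.7 CPM in NC, 15.2, 13.8, 13.5, 14 and 17.4 with sh1, and 1.54, 1.86, 1.5, 1.74 and 2.21 with sh4. The 3 groups were wholly apart, with log2 fold changes of -0.78 ± 0.09 with sh1 and -3.84 ± 0.11 with sh4 (edgeR adjusted p = 7.8e-16 with sh4). PCDHA6 had the same order, at 22.4, 21.0, 18.6, 18.9 and 18.9 CPM in NC, 11.7, 13, 12, 12.2 and 12 with sh1, and 2.31, 1.92, 2.64, 3.06 and 2.16 with sh4 (-0.71 ± 0.09 and -3.04 ± 0.11). PCDHGA7, at 2.09 to 3.28 CPM in NC and 1.15 to 2.21 with sh1, was at 0.207 to 0.486 with sh4 (-3.15 ± 0.25). For all 3, sh1 exceeded sh4, by 3.06 ± 0.12, 2.33 ± 0.11 and 2.44 ± 0.27.

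Further alpha and gamma genes fell in NPCs by smaller steps. PCDHGA6 went from 6.84 to 10.3 CPM in NC to 4.83 to 6.88 with sh1 and 2.22 to 3.08 with sh4, a fall of 1.69 ± 0.14 with sh4. PCDHA10 was at 16.2 to 17.4, 10.3 to 13.7 and 6.71 to 7.56 CPM, with no overlap, and fell by 1.25 ± 0.08 with sh4. PCDHA7 (-1.13 ± 0.22 and -1.79 ± 0.23) and PCDHGB3 (-1.16 ± 0.25 and -1.73 ± 0.26) fell with both hairpins, the sh1 call of PCDHGB3 being lost without NC replicate 3. PCDHA9 fell with sh1 (-1.07 ± 0.22), and PCDHA5, PCDHGB1 and PCDHGA2 fell with sh4 by 1.33, 1.21 and 1.08 on the log2 scale. Not all variable alpha and gamma genes were lower. PCDHA11 had log2 fold changes of 0.35 ± 0.09 with sh1 and 0.50 ± 0.09 with sh4, short of the size of a call. PCDHGA10 was at 0.20 ± 0.09 and -0.21 ± 0.09, and PCDHA4 and PCDHGB5 did not pass with sh4 (-0.17 and -0.21). The share of PCDHA11 in the listed alpha genes was 15.9% in NC, 24.6% with sh1 and 30.6% with sh4. The 9 listed alpha genes summed to 98.9 to 104.6 CPM in NC, 80.85 to 87.4 with sh1 and 67.3 to 79.9 with sh4.

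C-type genes did not follow them. PCDHGC3 was at 87.2, 81.9, 85.7, 82.5 and 81.7 CPM in NC, 149, 127, 149, 147 and 143 with sh1, and 168, 150, 143, 165 and 151 with sh4, above NC in all 10 hairpin libraries (0.77 ± 0.05 and 0.89 ± 0.05). Its share of the listed gamma genes was 41.4% ± 1.9 in NC, 56.9% ± 1.3 with sh1 and 69.2% ± 2.1 with sh4 (SD, n = 5). PCDHGC5 rose with sh1 (1.18 ± 0.26) from 0.783 to 2.21 CPM in NC to 2.21 to 4.09. PCDHGC4 scattered within groups, at 7.72 to 12.8 CPM in NC, 9.38 to 25.1 with sh1 and 3.16 to 10.5 with sh4, and was higher with sh1 than with sh4 by 1.29 ± 0.26. PCDHAC1 was higher with sh4 by 0.76 ± 0.10, at 11.6 to 12.7 CPM against 5.48 to 8.60 in NC.

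Of the 3 listed beta genes, PCDHB5 was lower and PCDHB2 higher with sh4 by the wider rule, and PCDHB3 did not differ past the test (0.01 ± 0.18). PCDHB5 was at 17.9 to 20.3 CPM in NC, 20.0 to 23.8 with sh1 and 11.0 to 14.3 with sh4 (0.21 ± 0.08 and -0.53 ± 0.08). PCDHB2 was at 10.5 to 12.2, 8.22 to 10.6 and 15.2 to 20.1 CPM (-0.28 ± 0.10 and 0.59 ± 0.09), the reverse order. Their sum with PCDHB3 was 33.3 ± 1.6, 33.3 ± 2.9 and 33.2 ± 3.1 CPM (SD, n = 5), so the opposite changes of PCDHB5 and PCDHB2 left no trace in it.

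**Figure D3:**
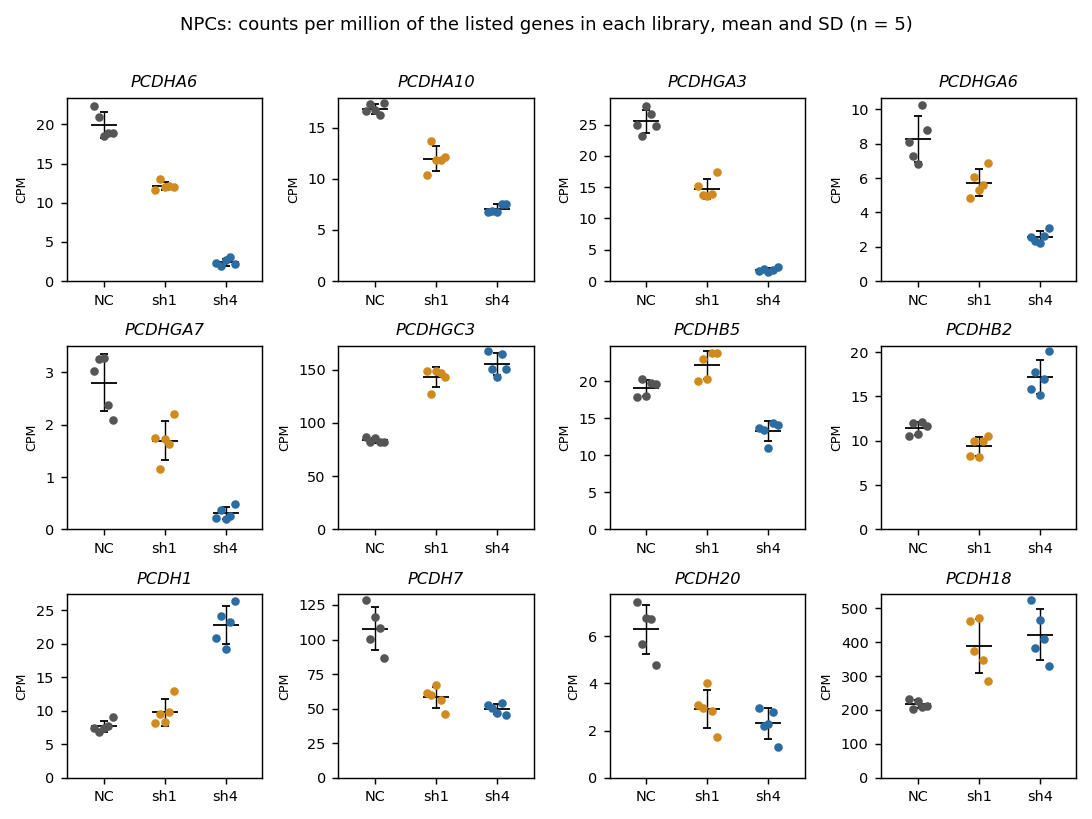
CPM, relative to listed genes, of 12 protocadherin genes in each NPC library (points), with the mean and SD of each group of 5 (black). PCDHA6, PCDHGA3 and PCDHGA7 are close to 0 with sh4 and intermediate with sh1, while PCDHGC3 and PCDH18 are above NC with both hairpins and PCDH1 with sh4.

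Among non-clustered genes in NPCs, PCDH1 was the 1 member called higher with sh4. It was at 7.36, 6.80, 7.42, 7.68 and 9.08 CPM in NC, 8.12, 9.55, 8.28, 9.78 and 13 with sh1, and 20.9, 24.1, 19.2, 23.3 and 26.3 with sh4. The sh4 libraries lay above all others (1.57 ± 0.12, edgeR adjusted p = 7e-10), while sh1 and NC overlapped. PCDH7 fell with sh4 from 86.3 to 128 CPM to 45.3 to 54.1 (-1.11 ± 0.10), with sh1 at 46.2 to 66.9 (-0.89 ± 0.10). PCDH20 fell with both hairpins, from 4.80 to 7.46 CPM in NC to 1.75 to 4.03 and 1.30 to 2.97 (-1.10 ± 0.20 and -1.44 ± 0.20). PCDH18 had the highest level per kilobase of the listed members, 32.3 ± 1.8 CPM per kb in NC (SD, n = 5), and was at 204 to 232 CPM in NC, 285 to 472 with sh1 and 329 to 524 with sh4 (0.84 ± 0.12 and 0.97 ± 0.12). PCDH11X, at 1.24 to 2.14 CPM in NC, was higher with sh1 than with sh4 by 1.30 ± 0.22.

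The systems were then compared directly, since the same hairpins were used in both. The test took the mean log2 fold change of sh1 and sh4 in NPCs minus the same in organoids, over 10020 genes. Of the 32 members, 22 had an adjusted p under 0.05 (68.8%), 10 higher and 12 lower in NPCs, against 78.6% of all genes. Both shares come from genes of the NPC table, taken above as preselected, and the NPC change with sh1 enters this test. They therefore cannot say whether protocadherins differ between systems more or less often than unselected genes. PCDH20 was at -1.26 in NPCs and 2.38 in organoids, a difference of -3.64 ± 0.29 (edgeR adjusted p = 5.71e-11). PCDH7 was at -0.99 and 1.30, a difference of -2.30 ± 0.15. PCDH1 (0.97 and -1.15) and PCDH19 (0.65 and -1.43) were the reverse, with differences of 2.12 ± 0.18 and 2.08 ± 0.20. For PCDHGB3, at -1.45 and -1.67, the difference of 0.23 ± 0.40 did not pass (edgeR adjusted p = 0.613). KDM2A itself differed by -1.05 ± 0.08, which bears on the whole comparison.

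**Figure D4:**
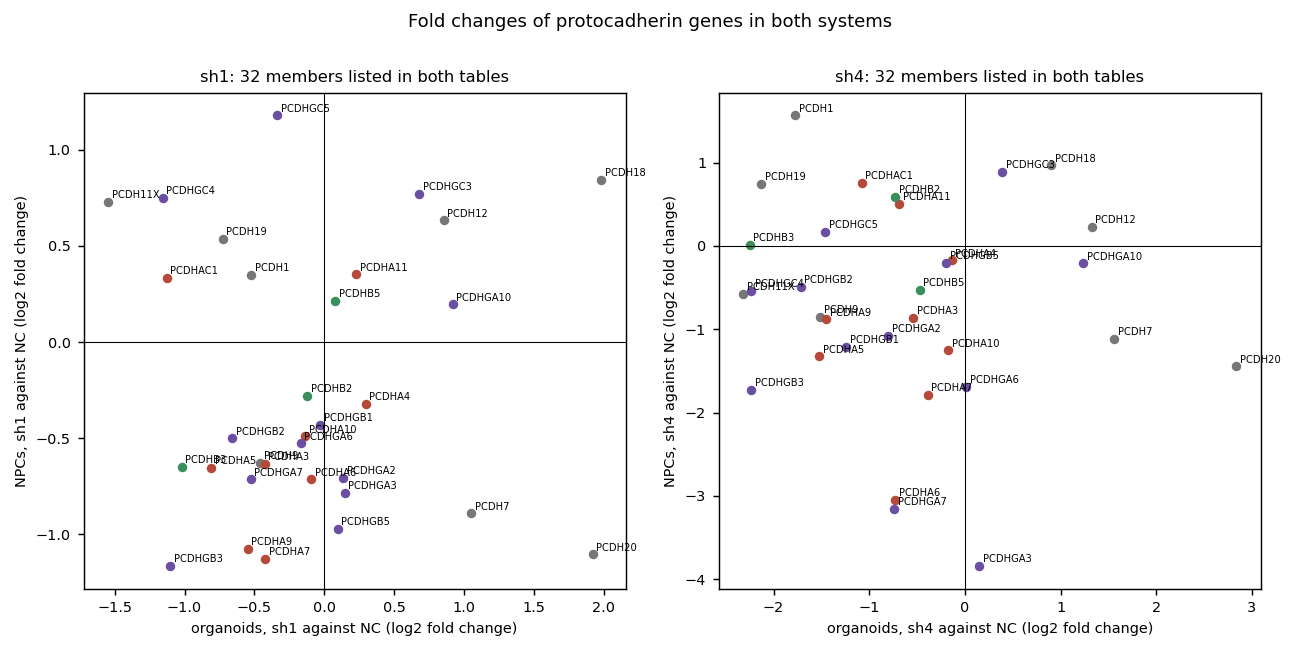
Log2 fold change against NC in organoids (horizontal) and NPCs (vertical) for the 32 protocadherin genes listed in both tables, for sh1 (left) and sh4 (right, on a wider scale), with alpha genes in red, beta in green, gamma in purple and non-clustered in grey. PCDH7 and PCDH20 are higher in organoids and lower in NPCs with both hairpins, and PCDHGA3, near 0 in organoids, reaches -3.84 in NPCs with sh4.

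Genes known to set promoter choice in the clusters were looked at as a list of 18 (CTCF, cohesin with its loaders and releasers, DNA and histone methylation, REST). In organoids 1 of 18 fell with each label and none rose, against 7.92% of all genes lower with sh1 and 15.5% with sh4. That gene was DNMT3B, a DNA methyltransferase known to methylate clustered protocadherin promoters in early development, at 341, 199 and 238 CPM in NC, 36.7, 40.9 and 39.8 with sh1 and 33.7, 40.6 and 29.7 with sh4 (-2.73 ± 0.19 and -2.90 ± 0.19). All hairpin-labelled organoids were far below NC, as were the summed pluripotency markers, at 455 to 708 CPM in NC and 64.3 to 82.1 CPM in the other organoids. In NPCs DNMT3B went the other way, from 65.2 to 85.8 CPM to 120 to 154 with sh1 and 130 to 172 with sh4 (0.77 ± 0.09 and 1.05 ± 0.09). Below the size of a call, 15 of the 18 were lower with sh4 in organoids by the wider rule, CTCF at -0.27 and the cohesin subunit RAD21 at -0.52 among them. With DNMT3B that makes 16 of 18, against 33.4% of all genes. With sh1 the wider rule gave 2 higher and 4 lower of 18, against 25.1% and 21.6% of all genes. STAG1 went the other way and was higher with both labels by that rule (0.80 ± 0.08 and 0.57 ± 0.08). Of 15 partners of protocadherin signalling (the WAVE complex, focal adhesion kinases, FYN, RET, CDH2, TAOK2, AXIN1 and PP1), 1 rose with each label in organoids and 3 fell with sh4, against 12.1% of all genes higher with sh1, and 20% higher and 15.5% lower with sh4. The gene that rose was PTK2B, the kinase PYK2 that clustered protocadherins bind and restrain, at 11.8, 12.6 and 12.0 CPM in NC, 31.5, 25.4 and 40 with sh1 and 97.9, 77.1 and 96.4 with sh4 (1.41 ± 0.16 and 2.90 ± 0.17). CDH2, ABI2 and CYFIP2 fell with sh4 by 1.01, 1.26 and 1.11 on the log2 scale. In NPCs none of the 12 listed partners was called against NC.

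Because alpha genes share their constant exons, as do gamma genes, reads from those exons cannot be told apart between isoforms. In the GENCODE annotation 21.3% to 56.6% of the exon bases of an alpha gene and 27.6% to 64.4% of those of a gamma gene are covered by other genes on the same strand, against 0% to 9.4% in the beta cluster. Whole numbers were less frequent among the deposited values of each cluster than over all genes. In organoids they made up 6% of the alpha, 29.9% of the beta and 16.2% of the gamma values above 0. The share was 87.2% in non-clustered genes and 78.8% over all genes. In NPCs it was 2.2%, 13.3% and 12.2% for the listed alpha, beta and gamma genes, against 82.2% over all genes. Beta genes share few exon bases, and the source of their fractions was not tested. The sources used here do not say how fractions were assigned. Levels of single alpha, beta and gamma genes are uncertain to that extent. Dropping the fractions takes less than 1 count from each value and leaves the assignment of shared reads as it was, so it does not measure this uncertainty. With the fractions dropped, 5 members were higher and 8 lower with sh1, 1 more lower than before, and 6 and 23 with sh4.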

How the data were processed

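The deposited values are expected counts per gene and library, which the authors made with STAR and featureCounts on GRCh38.p13 per the submitters' processing notes; versions, strand and multi-mapping settings are not given in the sources used here. Values were rounded, filtered with filterByExpr (minimum count 10), scaled by TMM and tested in edgeR 4.0.16 (R 4.3.3) by quasi-likelihood F tests, each system with its 3 groups together, with Benjamini-Hochberg adjustment over all tested genes. CPM uses TMM-scaled library totals. Thresholds (adjusted p under 0.05, log2 fold change of at least 1) follow the design text. Organoid identifiers were matched to symbols by a RefSeq gene table, and 13 PCDH symbols that are not protein-coding were left out. Promoters came from RefSeq GRCh38.p14 and exon overlap from GENCODE. The script was tested on simulated counts. Members and lists were chosen with earlier results of these data known. Named were KDM2A, every member called in any comparison, and in each cluster the 3 of highest level and the extremes of each organoid comparison (51 members), plus list genes called with both hairpins; other genes named were picked after their values were seen. Alternatives were DESeq2 1.42.0, RLE factors, library size alone, other filters, dropped fractions, 2-group fits, a replicate block and leaving out each library. Replicates of a group differed beyond sampling noise (2.65 to 55.4 as chi-square over its degrees of freedom), so none was counted as a repeat.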

Additional observations from a re-analysis of the deposited data

Results flagged for a closer look

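Single libraries stood apart from the other 4 of their group in 4 of the 87 groups of 5 that were looked at, and chance flags about 1 group in 20. PCDHB5 was at 10.96 CPM in NPC sh4 replicate 3 (others 13.45 to 14.31), and PCDHGC3 at 126.8 CPM in NPC sh1 replicate 2 (others 143 to 149.1). PCDHGB3 was at 4.732 CPM in NPC NC replicate 3 (others 2.043 to 2.523), and PCDHA7 at 2.64 CPM in NPC sh4 replicate 4 (others 0.7241 to 1.242). Organoid groups of 3 were not looked at in this way.

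The mean log2 fold change of both hairpins differed between NPCs and organoids in 22 of 32 members. It was higher in NPCs, as NPCs minus organoids, for PCDH1 (2.12), PCDH19 (2.08), PCDH11X (2.02), PCDHGC4 (1.81), PCDHAC1 (1.66), PCDHGC5 (1.60), PCDHB3 (1.33), PCDHA11 (0.67), PCDHB2 (0.59) and PCDHGC3 (0.31). It was lower in NPCs for PCDH20 (-3.64), PCDHGA3 (-2.45), PCDH7 (-2.30), PCDHA6 (-1.45), PCDHGA7 (-1.28), PCDHGA10 (-1.07), PCDHA7 (-1.04), PCDHGA6 (-1.01), PCDHA10 (-0.70), PCDH18 (-0.53), PCDHGB5 (-0.52) and PCDHA4 (-0.32). The systems also differ in culture, in table and in the level of KDM2A, and these cannot be told apart from a difference in response.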

How the results depend on the processing

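By library size alone, without TMM, the median of all genes shifted by -0.27 (organoids sh4 against NC), 0.23 (organoids sh1 against sh4), -0.14 (NPCs sh1) and -0.14 (NPCs sh4), and the share of higher among called genes moved from 56.4% to 43.3%, 41.2% to 57.3% and 34.3% to 23.7% in the first 3. Members called in organoids sh4 against NC were then 4 higher and 31 lower, and 22 were higher with sh1 than with sh4. Summed levels in organoids became 183.6 (alpha, NC), 197.2 (alpha, sh1), 183.7 (alpha, sh4), 337.7 (beta, NC), 332.9 (gamma, NC), 276.4 (gamma, sh4) and 437.8 CPM (non-clustered, NC), and in NPC NC libraries 109.0 (alpha), 35.49 (beta) and 216 CPM (gamma). KDM2A in organoids sh4 against NC went from 0.01 to -0.27 by library size alone and to between -0.0224 and 0.0501 where 1 library was left out. A minimum count of 30 tests 53 members and gave 4 lower with sh1 and 1 lower in sh1 against sh4, as did the fit of these 2 groups alone (1). With the replicate block 1 member was lower in sh1 against sh4, and in organoids the sh1 call of PCDHGB3 and the sh4 calls of PCDHGA5 and PCDHGC5 were lost. The labels do not say whether equal numbers pair libraries, and the main fits did not pair them. Same-numbered deviations correlated at -0.16 to 0.04 in organoids and -0.10 to 0.39 in NPCs, with medians of -0.01 and 0.12. For libraries of different numbers the medians were 0.03 in organoids and -0.03 in NPCs, where the range was -0.48 to 0.38. Leaving out 1 library lost up to 4 of 12 (sh1 against NC), 4 of 29 (sh4 against NC) and 6 of 16 (sh1 against sh4) member calls in organoids, where library size alone lost 0, 2 and 0. It gave 3 to 7 members lower with sh1 in organoids, 9 to 16 higher and 1 to 2 lower in sh1 against sh4 (9 without sh4 replicate 1), and 1 to 2 higher with sh4 in NPCs. No called member changed direction in any of these fits. Of the 80 fold changes of named members that did not pass, 21 changed sign in some setting, to at most 0.40 in size. Depth limits members under 5 CPM most.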
